A study of Mus musculus with 6 samples.

Results

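The 9 genes described here belong to the T cell receptor complex and its first signalling steps, and were followed by RNA-seq in dendritic cells that had been sorted from mouse ovarian tumours. They were taken by symbol from a deposited table of 23225 gene symbols, and all 9 were found there: Cd3d, Cd3e, Cd3g, Cd247, Lck, Zap70, Lat, Cd2 and Cd5. The cells came from day 23 tumours of ID8, an ovarian carcinoma line of mouse that forms peritoneal tumours and ascites, in mice of the C57BL/6 background. There were 3 libraries of wild-type mice (WT) and 3 of mice carrying a conditional knockout that removes XBP1, a transcription factor of the ER stress response, in cells positive for CD11c (XBP1-KO). Both groups bore the same tumour, and no other allele or agent is named in the labels. The table's columns carry no replicate number, so the libraries of a genotype are called a, b and c, and a letter pairs nothing. Whether each library came from its own animal is not stated, so the p-values reflect only how far these libraries differ, which may be technical.

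The T cell receptor recognises peptide on MHC molecules through its alpha and beta chains, which have no signalling tail of their own. The signal passes through the CD3 gamma, delta and epsilon chains and the zeta chain CD247, whose tails hold paired tyrosines known as ITAMs. The kinase LCK phosphorylates these tyrosines, the kinase ZAP-70 binds to them, and the adaptor LAT is then phosphorylated and gathers the enzymes that follow. CD2 is an adhesion and costimulatory receptor, and CD5 dampens the signal. In mice these genes are known from T cells, but not all of them are restricted to T cells: NK cells use CD247, LCK, ZAP-70 and LAT, B cells and NK cells can carry CD2, and B-1 cells of the peritoneum carry CD5. Myeloid cells, dendritic cells among them, use related parts, the ITAM adaptors FcR gamma (Fcer1g) and DAP12 (Tyrobp). Their kinase SYK is related to ZAP-70 and their adaptor LAT2 to LAT, and the use of LAT2 does not mean that LAT is absent.

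The coding stretches of the ITAMs are shown because they are what the 4 signalling chains share with the 2 myeloid adaptors. They were found in GENCODE M21 transcripts of the mouse build GRCm38 as a tyrosine codon, 2 further codons and a leucine or isoleucine codon, then 6 to 8 codons, and the same 4 codons again. Of several coding transcripts of a gene the one with most matches was used. Each line reads 5′ to 3′ on the coding strand, with the tyrosine and the leucine or isoleucine codons in capitals.
Cd3d: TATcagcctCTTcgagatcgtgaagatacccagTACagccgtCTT
Cd3g: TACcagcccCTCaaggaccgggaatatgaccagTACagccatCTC
Cd3e: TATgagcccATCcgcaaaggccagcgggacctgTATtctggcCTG
Cd247, the first: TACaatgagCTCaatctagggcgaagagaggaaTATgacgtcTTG
Cd247, the second: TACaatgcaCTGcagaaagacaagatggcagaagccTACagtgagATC
Cd247, the third: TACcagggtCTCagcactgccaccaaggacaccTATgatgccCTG
Fcer1g: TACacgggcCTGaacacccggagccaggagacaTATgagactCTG
Tyrobp: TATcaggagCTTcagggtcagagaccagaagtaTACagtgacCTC
Cd247 held 3 such stretches and each of the other 5 genes held 1. The stretches of Cd3d and Cd3g were the most alike of those of equal length, with 32 of 45 bases identical. The third stretch of Cd247 and that of Fcer1g shared 29 of 45 bases, and Cd3d and the first of Cd247 shared 12 of 45.

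Depth and other cell types bear on how these genes can be read. The libraries held 26946349 to 32709100 counts, and levels are given as CPM, the count scaled to library size with TMM factors. Xbp1, the targeted gene, was counted 1903, 1376 and 2300 times in WT and 889, 916 and 1331 times in XBP1-KO, which is -0.89 on the log2 scale (SE 0.18) at an adjusted p = 0.0545 (edgeR's quasi-likelihood test). It passed in 5 of 15 alternatives, DESeq2 among them, and the adjusted p ran from 0.00148 to 0.301. The sort is labelled as dendritic cells, and levels within the dendritic cell list ranged widely. Cd74, a part of the MHC class II pathway that B cells and macrophages also use, stood at 59850 to 99893 CPM in WT. Means in WT were 1632 CPM for Cd209a, 35.9 for Flt3, 22.7 for Clec9a and 8.66 for Zbtb46. The macrophage gene Lyz2 stood at 9614 to 19039 CPM in WT. On the second principal component, which held 25.9% of the variance of log2 CPM, WT b and XBP1-KO b lay at 32.5 and 23.4 and the other 4 libraries between -26.9 and -3.67. For the 9 genes the value without both of these libraries is given where the fold change moves by over 1.5 times, the call ends or the direction turns. The summed level of 10 NK cell markers was higher in XBP1-KO, at 171 to 223 CPM in WT and 242 to 376 CPM in XBP1-KO. So was that of 10 B cell markers, at 144 to 333 and 363 to 522 CPM. These sums were not tested, and edgeR called 4 of the NK cell markers and 0 of the B cell markers. Klrb1c and Klrk1, the most abundant of the NK list in WT, did not pass (edgeR adjusted p = 0.736 and 0.963). Mast cell and neutrophil genes summed to 55.8 to 146 and 175 to 321 CPM over 8 markers. No marker of these 3 lists that the table holds was at 0 in all libraries. Their part in the results was not tested, and in bulk RNA more cells of a type and more RNA per cell cannot be told apart.

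The genotypes were compared to ask what changes in the sorted population when CD11c-positive cells lack XBP1. All 9 genes had a higher mean in XBP1-KO, and 2 of them rose: Cd3e by 1.59 on the log2 scale, or 3-fold, and Lck by 1.26, or 2.4-fold. The other 7 did not pass the test. Of 15958 genes tested, 0.157% rose and 0.445% changed in either direction in edgeR's quasi-likelihood test with a threshold of 0.05 on the adjusted p. DESeq2, quoted below as an alternative, called far more: 484 of the 12866 genes to which it gave an adjusted p, 108 of them higher. Limma-voom called 47 of 15958. Every XBP1-KO value lay above every WT value for 5 of the 9, namely Cd3d, Cd3e, Cd3g, Lck and Lat, against 8.8% of all genes tested. The median log2 fold change was 1.19 over the 9 genes, which were chosen with earlier results of these data known, and 0.06 over all genes tested. At an unadjusted p under 0.05 there were 6 of the 9 and 12.9% of all genes.

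**Figure D1:**
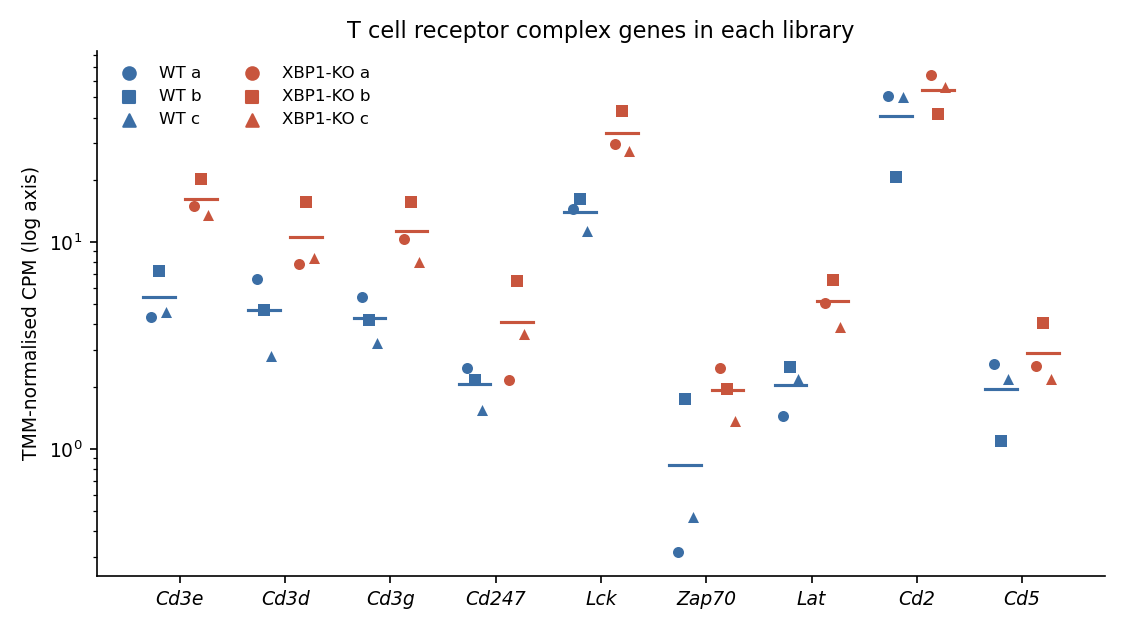
TMM-normalised CPM on a log axis for each of the 9 genes, with 1 point per library (blue WT, red XBP1-KO; circle, square and triangle are libraries a, b and c) and a line at each genotype mean. The red points of Cd3e lie between 13.5 and 20.2 CPM, above the blue points between 4.34 and 7.26 CPM, while those of Cd2, Cd5, Cd247 and Zap70 overlap with the blue ones.

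The CD3 chains came first. Cd3e, the epsilon chain that pairs with both gamma and delta, had 4.34, 7.26 and 4.61 CPM in WT a, b and c and 14.9, 20.2 and 13.5 CPM in XBP1-KO a, b and c. Even the lowest XBP1-KO library was well above WT b, the highest WT library. Its mean went from 5.4 ± 1.61 to 16.2 ± 3.56 CPM (SD, n = 3 each), which is 1.59 on the log2 scale (SE 0.25, edgeR adjusted p = 0.0227). The call ended without WT a (0.0569), WT c (0.17) or XBP1-KO a (0.0606), with library size as the only scaling (0.0651) and with limma on the deposited CPM (0.0576), and over all 15 alternatives the adjusted p ran from 1.5e-06 to 0.17. With WT b and XBP1-KO b both left out it held, at 0.0376.

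Cd3g, the gamma chain, had 5.4, 4.18 and 3.24 CPM in WT and 10.4, 15.7 and 7.98 CPM in XBP1-KO. The genotypes did not overlap, and the log2 fold change was 1.41 (SE 0.29, edgeR adjusted p = 0.0572). Cd3d, the delta chain, had 6.6, 4.67 and 2.81 CPM in WT and 7.87, 15.6 and 8.34 CPM in XBP1-KO. Here the groups only just parted, between WT a and XBP1-KO a, and the log2 fold change was 1.17 (SE 0.35, edgeR adjusted p = 0.171). Without both b libraries it was 0.77 (0.373). Summed over the 3 chains the level was 16.4, 16.1 and 10.7 CPM in WT and 33.2, 51.5 and 29.8 CPM in XBP1-KO. DESeq2 called all 3 chains, with the filter on low counts removed Cd3g and Cd3e passed, and with a filter at a CPM of 1 the same 2 passed.

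Cd3g, Cd3d and Cd3e follow each other on chromosome 9, and the start sites of Cd3g and Cd3d, which point away from each other, lie 1355 bases apart in GRCm38. In the gene order of the RefSeq table Ube4a, a ubiquitin ligase, lies next to Cd3g, and Mpzl2, a cell adhesion protein, next to Cd3e. Ube4a had 43.2 ± 5.07 CPM in WT against 33.1 ± 9.55 CPM in XBP1-KO, which is -0.38 on the log2 scale (SE 0.20, edgeR adjusted p = 0.442). Mpzl2 had 8.73 ± 2.74 and 4.46 ± 1.11 CPM, which is -0.97 on the log2 scale (SE 0.30, edgeR adjusted p = 0.168). The point estimates of both neighbours thus lay opposite in sign to those of the 3 CD3 genes between them.

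The 250 bases before each of these 3 start sites are shown because the genes are neighbours. Cd3d, Cd3g and Cd3e all had their highest level in XBP1-KO b, but so did 7 of the 9 genes in all, on several chromosomes. The sequences are those of RefSeq on GRCm38.p6, each 5′ to 3′ on the strand of its gene. Capitals mark matches on either strand to core letters of factor families known from lymphoid cells. The letters were AGGAAG for the ETS family and CAGNTG for the E proteins. For the TCF and LEF factors they were CTTTGA, for the RUNX family TGTGGT and for the factors named after GATA the run AGATAA. No capital stretch in these windows joins 2 motifs.
Cd3g, chr9:44980432-44980681, minus strand: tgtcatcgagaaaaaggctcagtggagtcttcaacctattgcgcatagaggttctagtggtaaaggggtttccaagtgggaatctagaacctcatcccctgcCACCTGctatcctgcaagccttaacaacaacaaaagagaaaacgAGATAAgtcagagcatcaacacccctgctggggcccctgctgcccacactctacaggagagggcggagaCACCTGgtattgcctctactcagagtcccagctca
Cd3d, chr9:44981536-44981785, plus strand: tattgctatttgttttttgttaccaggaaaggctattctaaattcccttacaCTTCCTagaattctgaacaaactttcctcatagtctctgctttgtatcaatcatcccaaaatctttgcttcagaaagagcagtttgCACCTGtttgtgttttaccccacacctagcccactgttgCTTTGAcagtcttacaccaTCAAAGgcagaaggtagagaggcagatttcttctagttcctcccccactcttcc
Cd3e, chr9:45009612-45009861, minus strand: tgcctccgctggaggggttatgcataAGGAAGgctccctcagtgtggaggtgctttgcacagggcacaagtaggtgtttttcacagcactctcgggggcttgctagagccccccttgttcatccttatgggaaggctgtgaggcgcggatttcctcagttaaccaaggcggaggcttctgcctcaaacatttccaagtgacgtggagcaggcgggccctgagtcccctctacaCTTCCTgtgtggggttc
The Cd3e window held 2 matches to the ETS letters and none to the other 4 motifs, the Cd3g window 2 E protein matches and 1 GATA match, and the Cd3d window 1 ETS, 1 E protein and 2 TCF and LEF matches. Over all 32851 windows of this length 29.5% held the ETS letters, 44.8% the E protein letters, 13.8% the TCF and LEF letters, 9.99% the GATA letters and 14% the RUNX letters. The table held 11 windows for 8 of the 9 genes, and 9, 8, 2, 1 and 2 of them held these letters in the same order. A match is a run of letters and no measurement of binding.

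Cd247, the zeta chain, had 2.47, 2.16 and 1.54 CPM in WT and 2.16, 6.51 and 3.58 CPM in XBP1-KO. XBP1-KO b stood far above the rest while XBP1-KO a lay within the WT values, and the log2 fold change was 0.99 (SE 0.40, edgeR adjusted p = 0.318). Without XBP1-KO b it was 0.47, and without both b libraries 0.51 (0.624). In GENCODE M21, 2918 of the 4558 exon bases of Cd247 are also exon bases of Pou2f1, the transcription factor OCT1, on the opposite strand. The strand setting of the counting is not given in the sources used here, so without strand reads of Cd247 and of Pou2f1 cannot be told apart in these counts. Pou2f1 had 10.5 ± 0.68 CPM in WT against 9.11 ± 2.2 CPM in XBP1-KO (edgeR adjusted p = 0.739). The other overlaps of the 9 genes covered 135 exon bases of Cd3e (an antisense gene), 25 of Lck (a miRNA) and a further 206 of Cd247.

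The alpha and beta chains of the receptor itself are made from rearranged gene segments, and several rows of the table name them. The row called TCR-alpha chain had 4.77, 4.74 and 4.24 CPM in WT and 9.48, 14.6 and 9.8 CPM in XBP1-KO. Its WT values were close together and all XBP1-KO values stood above them. It rose from 4.58 ± 0.297 to 11.3 ± 2.87 CPM, which is 1.30 on the log2 scale (SE 0.24, edgeR adjusted p = 0.0443), but did not pass whichever of the 6 libraries was left out (0.0666 to 0.242), and lost the call in 10 of 15 alternatives (0.00021 to 0.242). The row name is no RefSeq symbol, and receptor segments are near-copies of each other, so that reads could have been split between rows. Tcrg, a gamma chain row, had 6, 6 and 0 counts in WT and 10, 88 and 30 in XBP1-KO (edgeR adjusted p = 0.174). Tcrb had 0, 9 and 8 counts in WT and 11, 16 and 12 in XBP1-KO, and Tcra 0, 0 and 0 against 3, 1 and 0. Ptcra, the pre-T cell alpha chain that plasmacytoid dendritic cells also make, had 1.08 ± 0.223 CPM in WT against 1.14 ± 0.0311 CPM in XBP1-KO. Gm16603, which RefSeq lists as the gamma constant gene Trgc2, had 0.518 ± 0.143 and 1.18 ± 0.86 CPM. Of 11 receptor gene names looked for, TCR-alpha chain not among them, 5 were found and 4 tested. Of these 4, edgeR, DESeq2 and limma-voom called 0, and 1 had an unadjusted p under 0.05, against 12.9% of all genes tested.

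Of the kinases, Lck had 14.5, 16.2 and 11.3 CPM in WT and 29.7, 43.1 and 27.7 CPM in XBP1-KO. Every XBP1-KO library was clear of every WT library, and XBP1-KO b was the highest. The mean went from 14 ± 2.51 to 33.5 ± 8.41 CPM, which is 1.26 on the log2 scale (SE 0.21, edgeR adjusted p = 0.0248). Left out in turn, WT a (0.0569), WT b (0.0662), WT c (0.18) and XBP1-KO a (0.0606) each ended the call. Library size as the only scaling (0.0772), limma on the deposited CPM (0.0731) and the 4 libraries without WT b and XBP1-KO b (0.0545) also ended it, within a range of 9.7e-06 to 0.18 over the alternatives.

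Zap70 was counted 9, 49 and 14 times in WT and 67, 58 and 45 times in XBP1-KO. These are few reads, and the 9 of WT a carry an exact Poisson 95% interval of 4.12 to 17.1 for counting error alone. In CPM the values were 0.318, 1.73 and 0.468 in WT and 2.45, 1.96 and 1.37 in XBP1-KO. WT b lay within the XBP1-KO values, and the log2 fold change was 1.19 (SE 0.59, edgeR adjusted p = 0.433). It was 2.25 without WT b (0.125) and 2.24 without WT b and XBP1-KO b (0.13), and did not pass in either. Lat, the adaptor, had 1.45, 2.48 and 2.17 CPM in WT and 5.05, 6.54 and 3.88 CPM in XBP1-KO. The genotypes did not overlap, and the log2 fold change was 1.34 (SE 0.33, edgeR adjusted p = 0.0896). Lat passed with DESeq2 and with no filter on low counts.

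Cd2 was the most abundant of the 9. It had 51.1, 20.7 and 50.4 CPM in WT and 64.5, 41.8 and 56.1 CPM in XBP1-KO. The low library of each genotype was b, and XBP1-KO b was also the library in which 7 of the 9 genes had their highest level. The log2 fold change of 0.41 (SE 0.35) had an edgeR adjusted p of 0.664, and its approximate 95% interval ran from -0.27 to 1.09. Without WT b it was 0.07 and without both b libraries 0.23. Some B cell genes were also low in WT b. Ms4a1, the B cell surface protein CD20, had 102, 37 and 64.3 CPM in WT and 111, 99.6 and 134 CPM in XBP1-KO. Cd79b, a chain of the B cell receptor, had 102, 45.2 and 71.8 and 122, 106 and 153 CPM. Others of the B cell list were not: Fcer2a had 5.12, 6.02 and 3.01 CPM in WT and Cr2 2.93, 3.26 and 3.24 CPM. Pax5, Faim3 and Ebf1 did not have their lowest WT level in WT b either. The part of B cell genes in the level of Cd2 was not tested. Cd5 had 2.58, 1.1 and 2.17 CPM in WT and 2.53, 4.05 and 2.18 CPM in XBP1-KO. XBP1-KO b alone lay above the WT range, and the log2 fold change of 0.58 (SE 0.40, adjusted p = 0.58) became -0.03 in the 4 libraries without WT b and XBP1-KO b.

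**Figure D2:**
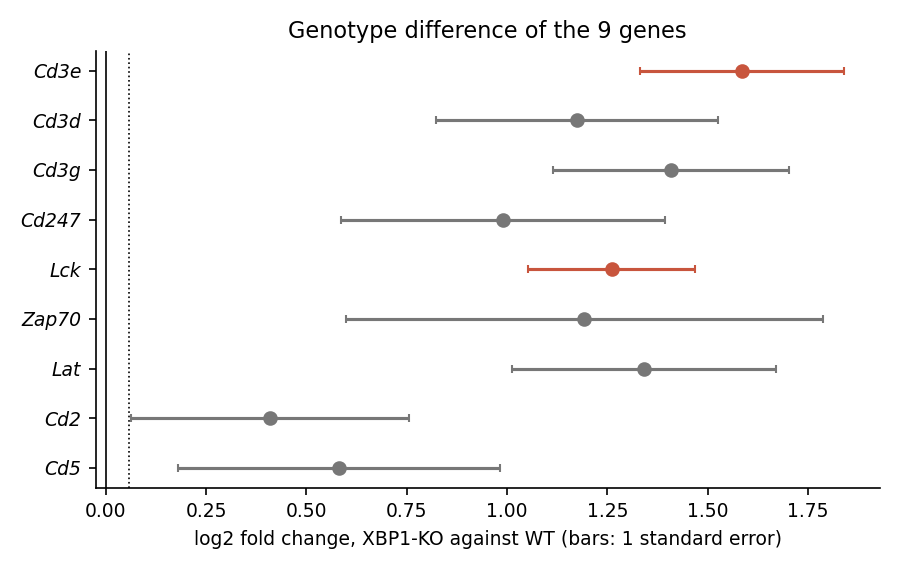
Log2 fold change of XBP1-KO against WT for the 9 genes, with bars of 1 standard error from edgeR; red marks the genes that passed, the solid line is 0 and the dotted line the median of all genes tested at 0.06. Cd3e at 1.59 and Lck at 1.26 are red, and Cd2 at 0.41 lies nearest to 0.

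Per length, the genes kept a wide range of levels in both genotypes. In CPM per kilobase of exons, from GENCODE M21 on GRCm38 and not the mm9 models of the counts, Cd2 was the highest in WT at 35.3 ± 15.1. Lck followed at 6.03 ± 1.09, then Cd3g at 4.18 ± 1.06, Cd3e at 3.7 ± 1.1, Cd3d at 2.9 ± 1.17 and Lat at 1.63 ± 0.425. Cd5, Cd247 and Zap70 were lowest at 0.624 ± 0.245, 0.451 ± 0.105 and 0.374 ± 0.347. Neighbours from Cd3g to Cd3d, and from Cd5 to Zap70, differed by less than the larger of their SDs. In XBP1-KO Cd2 had 46.9 ± 9.96 CPM per kilobase, Lck 14.5 ± 3.63, Cd3g 11.1 ± 3.85, Cd3e 11.1 ± 2.44, Cd3d 6.55 ± 2.66 and Lat 4.14 ± 1.07, so the first 6 stood in the same order by mean. Cd247, at 0.896 ± 0.487 in XBP1-KO, stood below the other CD3 chains in both genotypes. Its length of 4558 bases includes the 2918 that overlap Pou2f1. Whether the counts include reads of those bases is not known, so its place in this order depends on the length taken.

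Ratios within a library show how far the genes moved together. Cd3e over Cd3g was 0.804, 1.74 and 1.42 in WT and 1.44, 1.29 and 1.69 in XBP1-KO, below 1 in WT a only. These are ratios of CPM, not scaled to exon length, which is 1462 bases for Cd3e and 1023 for Cd3g. They do not show which of 2 genes had more transcripts. Lck over Cd3e was 3.33, 2.23 and 2.44 in WT and 1.99, 2.13 and 2.05 in XBP1-KO, a small step down in every XBP1-KO library. Cd2 over Cd3e was 11.8, 2.85 and 10.9 in WT and 4.32, 2.06 and 4.16 in XBP1-KO, with both b libraries lowest in their genotype. In an exact two-sided permutation test of 3 against 3, in which p cannot go below 0.1, 3 of 14 such ratios reached 0.1 (Lck over Cd3e, Klrb1c over Cd3e and Lat2 over Lat), and all 14 had Benjamini-Hochberg adjusted values of 0.467 or more.

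The myeloid counterparts of these genes were far more abundant. Tyrobp had 1466, 999 and 1529 CPM in WT and 1582, 1380 and 1393 CPM in XBP1-KO, and Fcer1g 1340, 1045 and 1375 and 1482, 1425 and 1268 CPM. Per kilobase Syk had 30.7 ± 1.55 CPM in WT against 0.374 ± 0.347 for Zap70, and Lat2 121 ± 8.3 against 1.63 ± 0.425 for Lat. Lat2 over Lat was 155, 83.2 and 109 in WT and 42.6, 33.3 and 52.4 in XBP1-KO, lower in each XBP1-KO library than in any WT library (exact permutation p = 0.1, the smallest possible). Syk had 185 ± 9.35 CPM in WT against 139 ± 21.8 CPM in XBP1-KO (edgeR adjusted p = 0.208). Of 11 myeloid ITAM adaptors and kinases none passed with edgeR, DESeq2 or limma-voom, and the median log2 fold change was -0.07. An unadjusted p under 0.05 was found for 4 of them, against 12.9% of all genes tested.

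Other genes of the receptor pathway were read from lists. Among 13 coreceptors and costimulatory receptors in the table, 11 lay higher, 0 passed in edgeR and the median was 0.51. An unadjusted p under 0.05 was found for 8 of them, against 12.9% of all genes tested. Cd8a, a coreceptor chain that lymphoid dendritic cells also make, had 6.32, 5.2 and 4.27 CPM in WT and 7.14, 11.2 and 9.19 CPM in XBP1-KO (adjusted p = 0.19). Cd8b1, its partner chain, had 10.1, 9.59 and 10.7 and 12.9, 19.4 and 14.1 CPM (0.217). Cd4, the other coreceptor, had 5.79, 4.92 and 6.45 CPM in WT and 4.43, 4.59 and 4.79 CPM in XBP1-KO (0.628). Cd8a and Cd8b1 thus lay above WT in every XBP1-KO library, as did 8.8% of all genes tested. Cd4 lay below WT in every XBP1-KO library, for which no share over all genes was taken, and none of the 3 passed. Cd28, the main costimulatory receptor of T cells, had 7.3 ± 0.804 and 12.3 ± 2.63 CPM (0.155), and Cd6, a relative of Cd5, 2.4 ± 0.842 and 2.87 ± 1.96 CPM (0.86). Cd96, a receptor of T and NK cells, had the smallest p of the list, with 1.9 ± 0.532 and 6.04 ± 2.34 CPM (0.0621), and DESeq2 called Cd96 and Cd69. The most abundant were Cd7, at 55 ± 11.3 and 75.8 ± 26 CPM (0.501), and Slamf6, at 21 ± 3.9 and 28.8 ± 3.55 CPM (0.299).

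Among 20 adaptors and kinases in the table that act with or after the 9 genes, 12 lay higher and 8 lower, with a median of 0.08. EdgeR and limma-voom called 0 and DESeq2 called 1, Skap1, and 5 had an unadjusted p under 0.05, against 12.9% of all genes tested. Skap1, an adaptor that links the receptor to integrins, had 7.7 ± 2.96 CPM in WT against 17.1 ± 4.46 CPM in XBP1-KO (edgeR adjusted p = 0.101). Lcp2 and Fyb, adaptors that myeloid cells share, were the most abundant, at 245 ± 8.8 and 232 ± 69.4 CPM for Lcp2 (0.887) and 199 ± 5.27 and 183 ± 53.1 CPM for Fyb (0.804). Fyn, a kinase related to Lck with a broader range of cells, had 48 ± 5.69 and 48.6 ± 6.51 CPM (0.972). Among 17 genes listed as brakes on the signal, 7 lay higher and 10 lower, with a median of -0.13. EdgeR and limma-voom called 0 and DESeq2 called 3 (Ptprc and Cbl lower, Lax1 higher). An unadjusted p under 0.05 was found for 5, against the same 12.9%. Cbl, a ubiquitin ligase, had the smallest p, with 44 ± 5.22 and 27.9 ± 4.27 CPM (0.0959). The phosphatase CD45, Ptprc, had 1061 ± 67.4 and 763 ± 67.1 CPM (0.121). CD45 also activates LCK, so its lower mean cannot be read as a weaker brake. The phosphatase SHP-1, Ptpn6, had 577 ± 14.6 and 525 ± 60.8 CPM (0.688).

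Of 13 transcription factors of the T lineage in the table, 10 lay higher and 3 lower, with a median of 0.70. EdgeR and limma-voom called 0 and DESeq2 called 3 (Tcf7, Ets1 and Ikzf3). An unadjusted p under 0.05 was found for 6, against 12.9% of all genes tested. Ikzf3, the lymphoid factor Aiolos, had 10.3, 7.43 and 6.04 CPM in WT and 23, 14.5 and 16.4 CPM in XBP1-KO (edgeR adjusted p = 0.0572). Ets1 had 66.7, 48.4 and 50.7 and 82.5, 89.5 and 98.2 CPM (0.0645). Both genes lay above WT in every XBP1-KO library, as did 8.8% of all genes tested. Nfatc1, a factor downstream of calcium that many cells use, had 54.8 ± 2.77 and 48.8 ± 3.64 CPM (0.626).

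**Figure D3:**
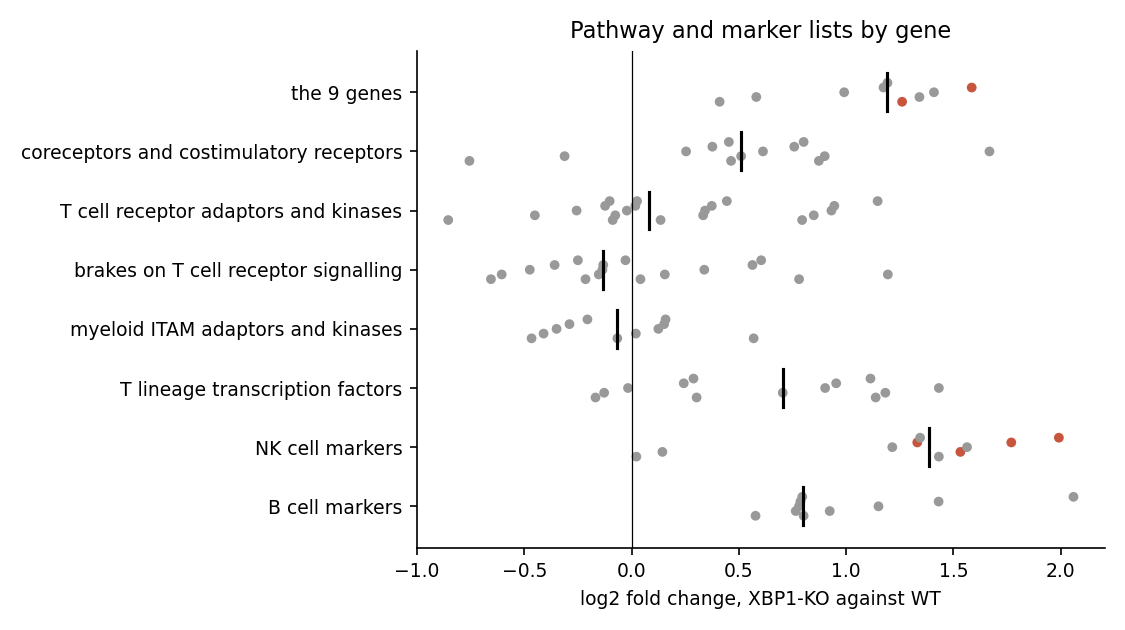
Log2 fold change of XBP1-KO against WT for each tested gene of 8 lists, with a black bar at the median of a list and red for genes that rose. The medians are 1.19 for the 9 genes, 1.39 for NK cell markers, 0.80 for B cell markers, 0.70 for T lineage transcription factors and 0.08 for adaptors and kinases.

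NK cell markers had the highest median of the lists, 1.39, with all 10 in the table higher and 4 risen, Xcl1, Nkg7, Klre1 and Ncr1. Ncr1, the NK receptor NKp46, had 5.51, 8.46 and 6.08 CPM in WT and 19.9, 26.4 and 11.7 CPM in XBP1-KO, a rise of 1.53 on the log2 scale (SE 0.29, edgeR adjusted p = 0.0489). Limma-voom called 3 of the list and not Ncr1, and DESeq2 called 5, Ncr1 among them. Ncr1 over Cd3e was 1.27, 1.17 and 1.32 in WT and 1.33, 1.31 and 0.869 in XBP1-KO, so that the ratio of this NK gene to the CD3 gene overlapped between the genotypes (exact permutation p = 0.9). Klrb1c, the NK receptor NK1.1, was more abundant and had 47.2, 63 and 51.6 CPM in WT and 53.2, 70.4 and 55.2 CPM in XBP1-KO (edgeR adjusted p = 0.736). Klrk1, the receptor NKG2D, had 73.7, 98.1 and 97.4 and 101, 92.8 and 79.5 CPM (0.963). Klrb1c over Cd3e was therefore 10.9, 8.69 and 11.2 in WT and 3.56, 3.48 and 4.1 in XBP1-KO, without overlap.

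B cell markers lay higher in 10 of 10 with a median of 0.80, and edgeR called 0 and DESeq2 3, with 7 at an unadjusted p under 0.05. Ebf1, a B lineage factor, had 2.44 ± 0.932 and 6.57 ± 1.31 CPM (edgeR adjusted p = 0.0838). Of 11 dendritic cell markers 3 lay higher (median -0.23), of 7 plasmacytoid dendritic cell markers 3 (-0.25), of 9 macrophage markers 5 (0.03) and of 8 tumour and mesothelial markers 5 (0.02). EdgeR called 0 in each of these 4 lists, with 2, 1, 1 and 1 at an unadjusted p under 0.05, and DESeq2 called Icam2 of the macrophage list and no other. Over all genes tested, the share at an unadjusted p under 0.05 was 12.9%. Itgax, whose product CD11c defines the cells in which XBP1 was deleted, had 103 ± 7.95 and 146 ± 14.2 CPM (0.106). Of 8 mast cell and neutrophil markers 8 lay higher and 3 rose, the mast cell genes Cma1, Cpa3 and Tpsb2 (median 1.19). DESeq2 called the same 3, and limma-voom called 1, Cma1.

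**Figure D4:**
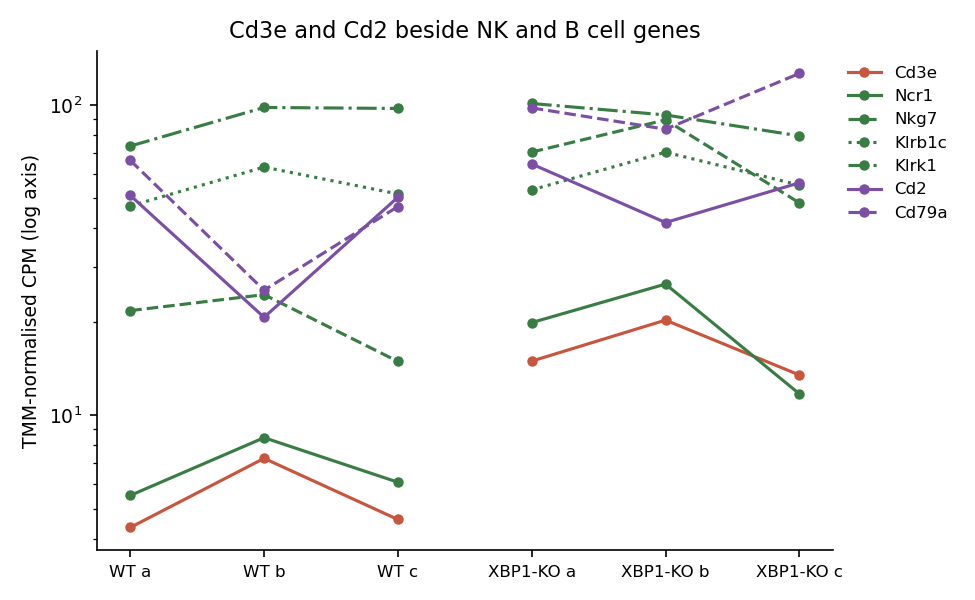
TMM-normalised CPM on a log axis in each of the 6 libraries for Cd3e, Cd2, the NK cell genes Ncr1, Nkg7, Klrb1c and Klrk1 and the B cell gene Cd79a, with lines joining libraries of a genotype only to guide the eye. Cd3e and Ncr1 run close together from 4.34 and 5.51 CPM in WT a to 20.2 and 26.4 CPM in XBP1-KO b, while Klrb1c stays between 47.2 and 70.4 CPM and Cd2 and Cd79a dip in WT b.

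The mean pattern of the 9 genes over the 6 libraries, in log2 CPM with each gene centred on its own mean, was compared with 13288 other genes whose mean over the 6 libraries was at least 1 CPM. Likeness was the root mean square difference over the 6 libraries, on the log2 scale. Among the 9 themselves Lck was nearest to the mean pattern, at 0.14, and Cd2 farthest, at 0.62. Each of the 9 is part of that mean, which lowers its own distance, while the other genes are not. The 6 nearest other genes were Alox15 (0.08), Gm11346 (0.08), Gimap3 (0.09), Tcfec (0.11), Ly6c1 (0.11) and TCR-alpha chain (0.11). Ly6c1 had 0.459, 0.495 and 0.434 CPM in WT and reached that mean through XBP1-KO, with 1.61, 1.86 and 1.27 CPM. Alox15, a lipoxygenase known from resident peritoneal macrophages, had 325, 306 and 278 CPM in WT and 554, 813 and 586 CPM in XBP1-KO. It rose by 1.10 on the log2 scale (SE 0.16, edgeR adjusted p = 0.0142). Gimap3, a GTPase of lymphocytes, had 29.2, 25.6 and 26 and 45.4, 63.1 and 42.4 CPM and rose by 0.90 (0.0459). Tcfec, a transcription factor of myeloid cells, had 4.94 ± 0.685 and 9.93 ± 2.69 CPM (0.102). The genes nearest in pattern thus held lymphocyte and macrophage genes side by side, over 6 libraries that share their depth and scaling. The mean pattern of the 9 was higher in every XBP1-KO library than in any WT library. That these 6 genes lay higher in XBP1-KO was therefore fixed by how they were picked, and their p-values add no support.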

How the data were processed

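Deposited counts are whole numbers per gene symbol in 6 libraries, without normalization. The authors' tools named in the submitters' processing notes are RSEM and edgeR with the build mm9, with no version or role, while aligner, annotation and strand setting were not given in the sources used here. A second deposited table holds the authors' CPM values for 13946 genes, each equal to the count over the library total within 5.1e-11, and was used in 1 alternative. Counts were tested two-sided with edgeR 4.0.16 in R 4.3.3 (filterByExpr, TMM, robust quasi-likelihood fit, genotype as the only term), with Benjamini-Hochberg adjustment over 15958 genes and a threshold of 0.05. The standard error is the fold change over the square root of F. The SD is over 3 libraries. Libraries of a genotype differed beyond sampling noise (chi-square per degree of freedom 22.5 to 74.5).

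The 9 genes and all gene lists were chosen with earlier results of these data known. Genes named from a list were those called (up to 4), or the one of smallest p, and the 2 of highest mean CPM. Some genes of the pathway, the 6 nearest in pattern and the neighbours of the CD3 genes were always named. Cd69, Tcf7, Pou2f1, Cd79a, Icam2, Lax1 and the receptor rows Tcrb and TCR-alpha chain were also named after their values were seen. So were the B cell genes Fcer2a, Cr2, Pax5 and Faim3 and the dendritic cell genes Cd209a, Flt3, Clec9a and Zbtb46. For lists without a pathway role only counts and few levels are given. One gene of the pathway that the rule names is not reported here. Older symbols were matched through RefSeq's table, and 2 names matching 1 row counted once. For the pattern, 0.5 CPM was added before the logarithm. On simulated counts, 3 against 3 with 15662 genes tested, 41% of 100 genes changed 2-fold and 100% of 100 changed 4-fold were recovered, where changed genes were drawn from those above 1 CPM, with 8 false calls. The simulation gave every gene the same dispersion and had no library set apart, so these shares need not hold in the data. Alternatives were DESeq2 1.42.0, voom in limma 3.58.1, other scalings and filters, the log2 of the deposited CPM + 1, and libraries left out.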

Additional observations from a re-analysis of the deposited data

How the results depend on the processing

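All 9 genes had log2 fold changes above 0 in 14 of 15 alternatives; the exception was the Cd5 log2 fold change, at -0.031 in the 4 libraries without WT b and XBP1-KO b. Calls among the 9 numbered 2 and went to 5 with DESeq2, 4 with no filter on low counts, 1 in those 4 libraries, 0 with library size alone, 0 with the deposited CPM, and 0 to 2 with 1 library left out. Calls over all genes numbered 71 and went to 484 with DESeq2, 252 with no filter, 47 with limma-voom, 25 with library size alone, 25 with the deposited CPM, and 5 (without WT c) to 154 (without XBP1-KO b) with 1 library left out. Among adaptors and kinases, 0 calls became 1 with DESeq2 and 1 with no filter, and stayed at 0 with each library left out. The median over the 9 genes, 1.19, ran from 0.90 to 1.36 with 1 library left out. With library size alone the median over all genes went from 0.06 to 0.14, and this scaling gave 13 higher and 12 lower genes where TMM gave 25 and 46; DESeq2 gave 108 and 376, and the 4 libraries 13 and 57. No paired analysis was possible because the columns carry no replicate number. Counting error is widest relative to the count for the lowest counts, such as the 9 of Zap70 in WT a, with an interval of 4.12 to 17.1. The causes of these shifts were not tested.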

Other observations

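XBP1-KO b held the highest level of 7 of the 9 genes and XBP1-KO a that of the other 2, Zap70 and Cd2. The lowest level lay in WT c for 4 genes, in WT a for 3 and in WT b for 2. Summed over the 8 genes other than Cd2, the level was 37.6, 39.8 and 28.3 CPM in WT and 75.1, 114 and 68.5 CPM in XBP1-KO. With Cd2 it was 88.7, 60.5 and 78.7 CPM in WT and 140, 155 and 125 CPM in XBP1-KO. WT b, the WT library lowest in the sum with Cd2, was thus the highest WT library without it.

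Gamma chain rows of the receptor were uneven between libraries. The row Tcrg-C had 3, 20 and 21 counts in WT and 21, 37 and 33 in XBP1-KO, and Tcrg had 88 of its counts in XBP1-KO b. The edgeR adjusted p was 0.571 for Tcrg-C.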
